A study of Mus musculus with 8 samples.

Results

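Foxp3 regulatory T cells were followed in CD45+ cells sorted from MC38 tumours, which grow from a mouse colon carcinoma line. A cell barcode was counted as a regulatory T cell if it held at least 1 unique molecular identifier (UMI, 1 counted transcript) of Foxp3 and at least 1 of the CD3 genes Cd3d, Cd3e and Cd3g together. It could hold at most 1 UMI of Cd8a and Cd8b1, fewer than 100 UMIs per 10000 of the phagocyte genes C1qa, C1qb, C1qc, Apoe and Lyz2, and at most 2 UMIs of the cell cycle genes Mki67, Top2a, Birc5 and Cdca3. These rules kept 744 of 37757 barcodes: 90 in control 1, 95 in control 2, 334 in LNP-Sirpa 1 and 225 in LNP-Sirpa 2. The rule uses measured transcripts, so the levels of these genes describe the choice and are not results.

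Regulatory T cells are CD4 T cells that carry the transcription factor FOXP3 and restrain other immune cells. They take up IL-2 through the high-affinity receptor chain CD25 (Il2ra), remove costimulatory ligands from antigen-presenting cells through CTLA-4, and can release IL-10 and TGF-beta. In tumours they often show an activated, effector-like state with TNF receptor family members such as OX40 (Tnfrsf4), GITR (Tnfrsf18) and 4-1BB (Tnfrsf9), and they are known for dampening CD8 T cell responses there.

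All libraries came from tumours of wild-type mice with 1 batch label. Of the 4 cDNA libraries, 2 were controls and 2 came from tumours treated with LNP-Sirpa, which the study describes as a tumour-directed means of degrading SIRPα, the inhibitory receptor by which phagocytes read CD47. What the controls received, the times and doses, and the ages of the mice are not stated in the sources used here, so effects of the Sirpa cargo and of the nanoparticle cannot be told apart. The study asks how the immune cells of the tumour differ after treatment. Nothing in the labels says whether replicates came from separate mice, so the p-values reflect the spread among these libraries alone, and that spread may be technical. The libraries held 68654004 to 90789729 UMIs in all. Their regulatory T cells together held 564581, 405351, 2002471 and 1033133 UMIs (control 1, control 2, LNP-Sirpa 1, LNP-Sirpa 2; every run of 4 values below keeps this order), with medians of 4004.5, 3887, 4335.5 and 3656 UMIs per cell. The controls therefore rest on fewer cells and fewer UMIs. Barcodes are named serially within each library, so barcodes shared between libraries could not be counted.

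The label was checked against markers that the rule did not use. At least 2 of the 4 markers Il2ra, Ikzf2, Ctla4 and Tnfrsf4 were seen in 94.2% of the chosen cells, against 28.0% of the 2216 barcodes that met every other limit without Foxp3. Cells with 1 Foxp3 UMI (232 cells) reached 85.8%, those with 2 UMIs 98.2% and those with 3 or more 98.0%. Close to the other limits, the share was 91.7% with 1 Cd8 UMI (inside) and 94.1% with 2 (outside), and 89.3% at 70 to 100 phagocyte UMIs per 10000 (inside) and 89.9% at 100 to 130 (outside). At the cycle limit it was 89.8% with 2 UMIs (inside) and 100% of 17 cells with 3 (outside). The CD3 limit separated most: 66.1% with 1 CD3 UMI (inside) and 30.8% of the 130 barcodes with none (outside). Of 2099 barcodes with Foxp3, 433 failed only the phagocyte limit, 141 only the cycle limit, 130 only CD3, 66 only CD8 and 585 more than 1 of them. Foxp3 UMIs were also seen in other barcodes. A Foxp3 UMI was present in 1.29%, 0.990%, 2.11% and 1.20% of macrophage-like barcodes. These were defined as holding no CD3 UMI and at least 100 phagocyte UMIs per 10000, with median depths of 7274.5, 6207, 6181.5 and 7889 UMIs. Whether free RNA or droplets of mixed cells account for these UMIs was not tested. The share with a Foxp3 UMI among CD8 T cells (at least 2 Cd8 UMIs and 1 CD3 UMI) was 2.74%, 2.57%, 6.41% and 2.74%. Members of the regulatory T cell set also carried macrophage transcripts. Their C1q level was 14.5%, 11.5%, 15.6% and 13.5% of that in macrophage-like barcodes of the same library.

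Regulatory T cells made up a larger share of the sorted cells in both LNP-Sirpa libraries. They were 1.20% of barcodes in control 1 (95% Wilson interval 0.976 to 1.47), 0.872% in control 2 (0.714 to 1.07), 3.23% in LNP-Sirpa 1 (2.90 to 3.59) and 2.5% in LNP-Sirpa 2 (2.20 to 2.84). The intervals cover counting error only. The groups did not overlap, with means of 1.04% ± 0.230 (SD, n = 2) and 2.86% ± 0.516 (n = 2). An exact two-sided permutation test over libraries gave p = 0.333, the smallest p that 2 against 2 libraries allow. edgeR's quasi-likelihood test on cell numbers, with all barcodes as library size, gave a log2 difference of 1.47 ± 0.32 (SE) and a Benjamini-Hochberg adjusted p of 0.0336 over the cell sets. After each barcode was thinned to 2000 UMIs, the shares were 0.942%, 0.751%, 2.93% and 1.90%. Because these are shares of sorted cells, they move with every other cell type: macrophage-like barcodes numbered 4560 and 6466 in the controls and 2652 and 3262 with LNP-Sirpa.

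Among CD4 T cells the regulatory share was lower with LNP-Sirpa, without a difference that the test could call. Of cells with a Cd4 UMI that were either regulatory T cells or Foxp3-negative CD4 T cells (no Foxp3 UMI, otherwise the same limits), 71.0% (49 of 69), 57.4% (54 of 94), 49.5% (192 of 388) and 41.5% (100 of 241) were regulatory. Both LNP-Sirpa libraries lay below both controls. Group means were 64.2% ± 9.59 and 45.5% ± 5.65 (SD, n = 2 each; exact permutation p = 0.333, two-sided). The difference of -18.7 percentage points shrank to -10.6 after thinning. It was -6.84 with overlapping groups when the phagocyte limit was dropped, an alternative added after the data were seen. Foxp3-negative CD4 T cells had the larger difference in number, with a log2 of 2.44 ± 0.32 (edgeR, adjusted p = 0.0112). For each 100 CD8 T cells there were 127, 27.9, 54.5 and 48.7 regulatory T cells. The controls spanned the LNP-Sirpa values, because control 1 held 71 CD8 T cells and control 2 held 341.

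**Figure D1:**
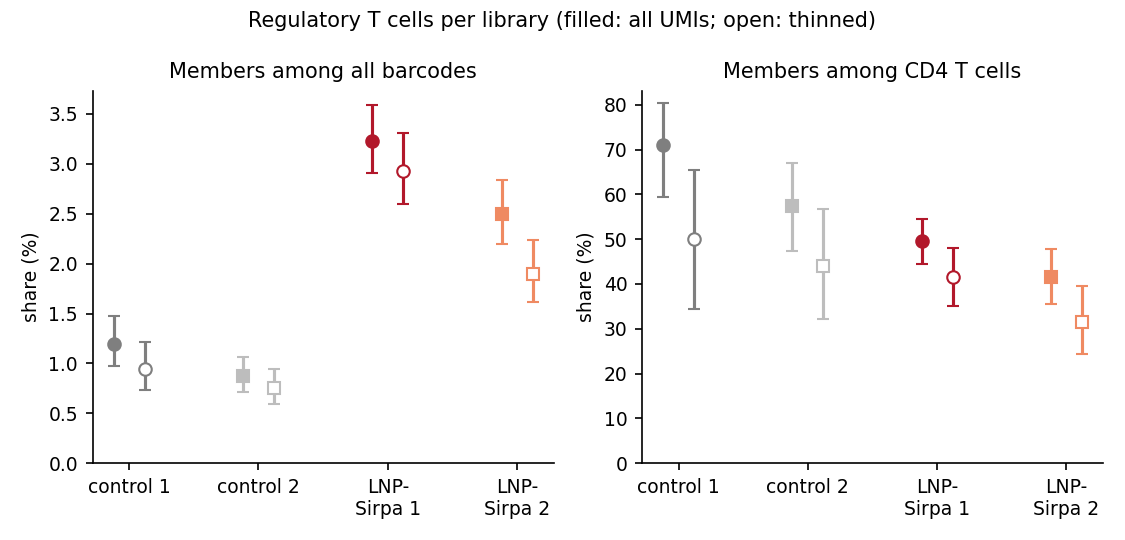
Share of regulatory T cells (%) per library among all barcodes (left) and among CD4 T cells (right), with all UMIs (filled) and after thinning to 2000 UMIs per barcode (open). Bars are 95% Wilson intervals for counting error; both LNP-Sirpa libraries lie above the controls on the left and below them on the right.

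The cells carried the core regulatory program at levels above those of other T cells in the same libraries. Levels are given as CPM, the counts of a gene in the summed cells of a set, scaled to the same total of UMIs in every set and library. They describe the sets and were not tested, since the sets were chosen by transcripts of the same cells. Il2ra, the CD25 chain of the IL-2 receptor, stood at 480, 503, 449 and 576 CPM, against 237, 125, 130 and 148 CPM in Foxp3-negative CD4 T cells. Ikzf2, which encodes the transcription factor Helios, reached 1288, 1838, 1118 and 1334 CPM, a mean 4.26 times that of Foxp3-negative CD4 T cells and 8.22 times that of CD8 T cells. The lowest regulatory T cell library lay above the highest library of those sets for both genes. Ctla4, an inhibitory receptor for the B7 costimulators, was at 733, 1053, 587 and 843 CPM, 2.36 times the level of Foxp3-negative CD4 T cells on average. OX40 (Tnfrsf4) was at 1403, 1456, 1090 and 1682 CPM, and its mean was 8.55 times that of CD8 T cells. For Ctla4 and Tnfrsf4 too, every library of regulatory T cells stood above the highest of either comparison set.

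Genes of effector and suppressive function set the cells apart from other CD4 T cells in different degrees. Klrg1, a lectin-like inhibitory receptor of terminally differentiated lymphocytes, was at 310, 264, 222 and 258 CPM against at most 48.9 CPM in any library of Foxp3-negative CD4 T cells, 8.07 times higher on average. Il10, the anti-inflammatory cytokine, was at 312, 257, 306 and 506 CPM against 6.08, 81.6, 122 and 92.4 CPM. Lrrc32, which encodes the TGF-beta docking receptor GARP, lay between 39.5 and 49.4 CPM and at no more than 11.8 CPM in Foxp3-negative CD4 T cells. The costimulators Icos, Tnfrsf18 and Tnfrsf9 averaged 1035, 891 and 1483 CPM, which is 2.07, 2.17 and 2.06 times the Foxp3-negative CD4 level. Some genes often listed for regulatory T cells were not higher in them. Ebi3, a subunit of IL-35, averaged 87.5 CPM here and 96.2 CPM in Foxp3-negative CD4 T cells. Nrp1, a semaphorin receptor used as a marker of thymic regulatory T cells, averaged 59.0 CPM against 115 CPM there and 144 CPM in macrophage-like barcodes. Its highest regulatory T cell library, at 69.1 CPM, lay below the lowest Foxp3-negative CD4 library, at 79.0 CPM. Ccr8, the chemokine receptor linked to tumour regulatory T cells, was low but higher in them, at 30.1, 37.0, 19.0 and 33.9 CPM. In Foxp3-negative CD4 T cells it was at 0, 5.44, 15.7 and 11.9 CPM. Tcf7, the transcription factor of naive and stem-like T cells, averaged 6.6 CPM, below the 32.8 CPM of Foxp3-negative CD4 T cells.

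**Figure D2:**
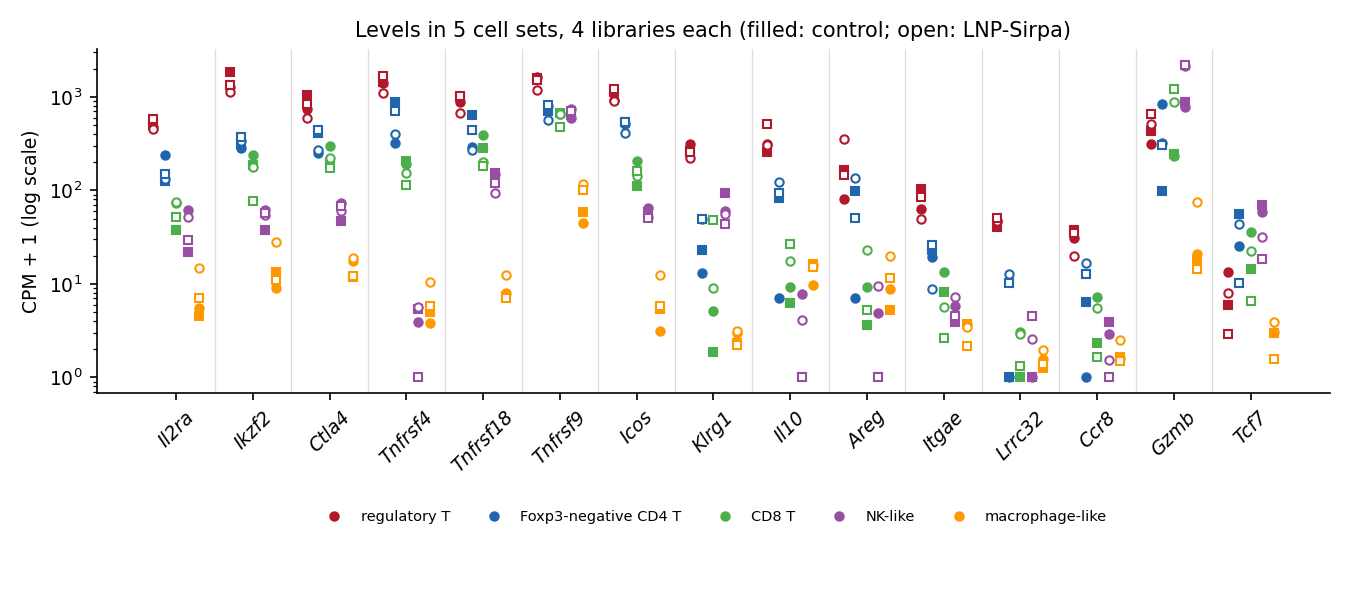
Level of 15 genes (CPM + 1, log axis) in regulatory T cells and 4 other cell sets; each point is 1 library, filled for control and open for LNP-Sirpa. Il2ra, Ikzf2, Klrg1 and Lrrc32 lie highest in regulatory T cells in every library, whereas Gzmb and Tcf7 do not.

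How widely these genes were spread over single cells was read after thinning every cell to 2000 UMIs, which left 85, 85, 300 and 195 regulatory T cells. Ikzf2 was seen in 87.1%, 88.2%, 78.0% and 81.0% of them, and in at most 4.2% of macrophage-like barcodes at the same depth. Tnfrsf9 was seen in 92.9%, 85.9%, 79.7% and 84.6%, against 5.2% to 14.8% of macrophage-like barcodes. Klrg1 marked a subset of 42.4%, 32.9%, 37.7% and 33.8%, against at most 9.9% of any library of Foxp3-negative CD4 or CD8 T cells. Il10 was seen in 23.5%, 28.2%, 21.7% and 33.8%. Gzmb, a cytotoxic granule protease, was present in 41.2%, 35.3%, 42% and 56.4%, and Gata3, the transcription factor of type 2 and tissue-repair programs, in 32.9%, 20.0%, 17.7% and 17.4%. Seen in few cells were Ccr8 (at most 7.1%) and Tcf7 (at most 2.4%). Of the differences between groups in these shares, none could pass an exact test, since its smallest p was 0.333. The widest without overlap were Ly6a, at 75.9% ± 10.8 in controls and 95.7% ± 0.435 with LNP-Sirpa (SD, n = 2 each), and Isg15, at 31.8% ± 1.66 and 57.4% ± 28.2. The same genes moved in macrophage-like barcodes, where Ly6a went from 9.9% and 16.5% to 83.9% and 82.7%, and Isg15 from 13.6% and 14.0% to 85.6% and 41.8%. How far free RNA from those cells contributes was not tested for these shares.

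**Figure D3:**
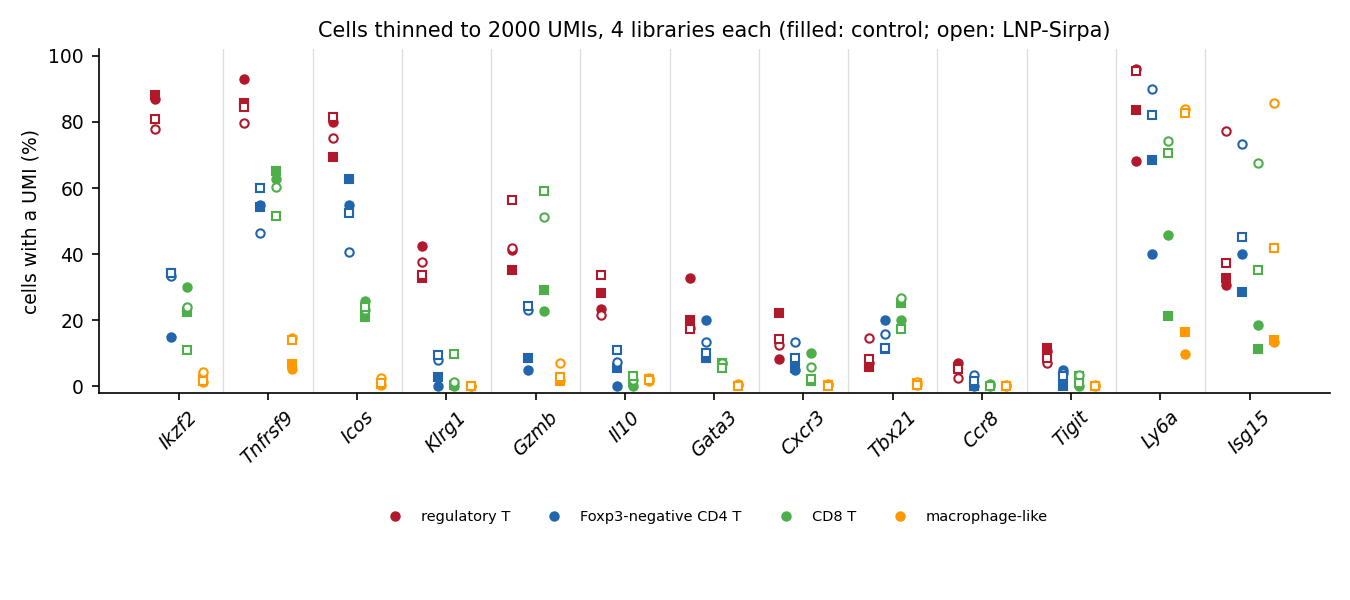
Percentage of cells with at least 1 UMI of 13 genes after thinning to 2000 UMIs, for regulatory T cells and 3 other sets; each point is 1 library, filled for control and open for LNP-Sirpa. Klrg1 is seen in 32.9% to 42.4% of regulatory T cells and in few other cells, and Ly6a is higher with LNP-Sirpa in all 4 sets.

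Treatment was tested on the summed UMIs of the regulatory T cells of each library with edgeR's quasi-likelihood test, Benjamini-Hochberg adjusted over all 7836 genes tested, at a threshold of 0.05. With LNP-Sirpa, 99 genes were higher (1.26%) and 7 lower (0.0893%), 1.35% of the genes in either direction. They included interferon-induced genes, some of them higher in the T cells than in macrophage-like barcodes, and genes known from myeloid cells, such as Cfb and Nos2. Of the 99, 25 were at least as high in regulatory T cells as in macrophage-like barcodes and 74 were higher in the latter; over all genes tested these numbers were 4835 and 3001. When the macrophage-like profile of the same library was subtracted, scaled by C1q, 78 were higher and 5 lower. With the same number of cells drawn from every library, an alternative added after the data were seen, 13 were higher and 2 lower. Leaving out 1 library at a time gave 57 to 246 higher and 9 to 47 lower.

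**Figure D4:**
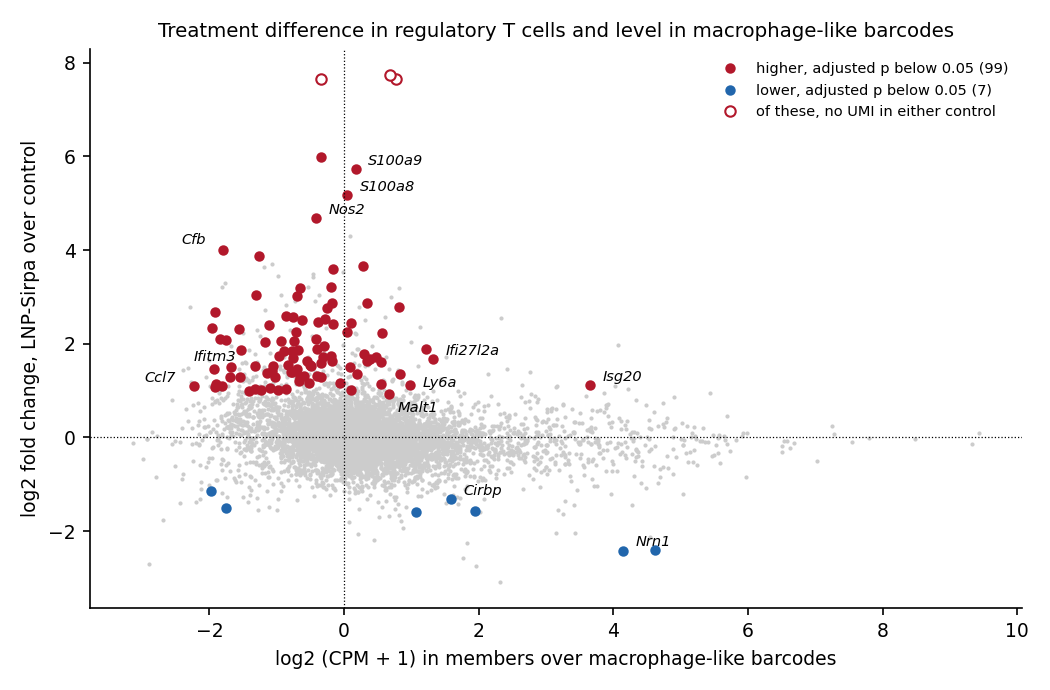
Each point is 1 of the 7836 genes tested: the log2 difference of LNP-Sirpa from control in regulatory T cells (vertical) against the log2 ratio of its level in regulatory T cells to that in macrophage-like barcodes (horizontal, 1 CPM added to both). Of the 99 genes that were higher, 74 have a lower level in the members than in macrophage-like barcodes; the 3 open points had no UMI in either control, so their height has no fixed value.

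Genes induced by type I interferon were the group with the most calls among the 22 lists examined, and also the largest list. The Ly6 and Ifitm list, which shares Ifitm3 with it, had 4 calls among 8 genes tested. Interferon alpha and beta act through the receptor IFNAR and the factor ISGF3, which binds interferon-stimulated response elements in the promoters of antiviral genes. Of 44 genes on the type I interferon list, 41 were in the files and 34 had enough UMIs to test. Among these, 8 were higher and 0 lower, beside 1.26% and 0.0893% of all genes. The median log2 difference was 1.76 beside -0.01 over all genes tested. In 29 of the 34 both LNP-Sirpa libraries lay above both controls, beside 17.8% of all genes. Because the LNP-Sirpa libraries held more UMIs, a gene could enter the test through them alone, so these counts describe the list and do not support it. LNP-Sirpa 1 was the highest library for all 34 genes. Without it the median was 0.94 with 5 higher; without control 1 it was 1.71 with 2 higher, and with equal cell numbers 1.64 with 1 higher. Without the phagocyte limit 3 were higher, and after subtraction 4.

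Promoter sequences are shown for 4 of these genes, to set their interferon-response motifs beside the values. They are the 150 bases before the annotated start in RefSeq on GRCm38.p6, 5′ to 3′ on the gene's strand, and the expression data were aligned to GRCm39. Isg15 lies at chr4:156200819-156200968, Oas1a at chr5:120907526-120907675, Bst2 at chr8:71537473-71537622 and Trim30a at chr7:104465194-104465343, all on the minus strand. Capitals mark matches, on either strand, to the motif GAAA, then any 2 bases, then GAAA again, with overlapping matches joined. Isg15 held 3 overlapping matches, Oas1a and Bst2 2 each, and Trim30a 1 on the reverse strand.
Isg15: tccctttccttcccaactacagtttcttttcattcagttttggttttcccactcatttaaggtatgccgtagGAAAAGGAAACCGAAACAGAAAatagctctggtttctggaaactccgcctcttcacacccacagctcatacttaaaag
Oas1a: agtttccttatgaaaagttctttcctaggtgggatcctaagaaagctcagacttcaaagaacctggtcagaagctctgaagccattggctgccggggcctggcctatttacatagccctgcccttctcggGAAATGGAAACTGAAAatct
Bst2: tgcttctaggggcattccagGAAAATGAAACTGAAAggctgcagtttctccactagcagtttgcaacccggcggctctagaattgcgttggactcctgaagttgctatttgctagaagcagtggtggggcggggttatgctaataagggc
Trim30a: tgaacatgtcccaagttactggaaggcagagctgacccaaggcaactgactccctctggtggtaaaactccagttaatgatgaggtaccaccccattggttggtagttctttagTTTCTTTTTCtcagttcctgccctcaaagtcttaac
In windows from 250 bases before to 50 after the start, the motif was in 943 of 27025 promoters (3.49%), in 227 of the 6263 tested genes with a promoter in the table (3.62%), and in 15 of 27 tested genes of the interferon list (55.6%). Of the 99 higher genes, 76 had a promoter in the table and 12 of them held it (15.8%). A match describes letters in a window and is not a binding site or a cause. Of the genes shown, Isg15 did not pass the threshold for treatment. Isg20, Ifitm3, Eif2ak2 and Slfn1, which passed it, had no match within the 150 bases.

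Ifi27l2a, an interferon-induced gene, was at 815 and 1127 CPM in the controls and at 3432 and 2602 CPM with LNP-Sirpa, without overlap. The log2 difference was 1.67 ± 0.24 (SE; edgeR adjusted p = 0.000271), and it passed the threshold in all 18 alternatives, with log2 values from 1.49 to 1.89. Its transcripts were spread over 85.6%, 86.3%, 97.6% and 95.1% of the cells. Isg20, a 3′ to 5′ exonuclease that degrades viral RNA, was at 168, 202, 434 and 350 CPM and averaged 22.1 CPM in macrophage-like barcodes. Both treated libraries lay above both controls (log2 1.12 ± 0.24, edgeR adjusted p = 0.0149), while without control 1 the value was 1.03 with an adjusted p of 0.133, and without LNP-Sirpa 1 0.99 with 0.0909. Trim30a, a ubiquitin ligase that restrains NF-kB signalling, was at 77.9, 96.2, 391 and 186 CPM (log2 1.77 ± 0.33, edgeR adjusted p = 0.0143; without control 1, 1.66 and 0.281). Trim30a held its call in 14 of 18 alternatives and Isg20 also in 14; Isg20 lost its call in Cd4-positive cells alone (0.82, adjusted p = 0.423). Trim30a was seen in 36.7% and 28.4% of control cells and in 74.3% and 44.9% of treated cells.

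Other antiviral effectors rose as well, with calls that were lost without control 1 or without LNP-Sirpa 1. Eif2ak2, which encodes the RNA-sensing kinase PKR, was at 12.4, 17.3, 73.9 and 34.8 CPM, a log2 difference of 1.96 ± 0.45 (edgeR adjusted p = 0.0259; without control 1 0.257, without LNP-Sirpa 1 0.409). Oas1a, a synthase that activates RNase L, was at 14.2, 9.87, 59.4 and 29.0 CPM (log2 1.90; without control 1 adjusted p = 0.111, without LNP-Sirpa 1 0.585). Bst2, which encodes the virion-tethering protein tetherin, was at 117, 109, 443 and 204 CPM (log2 1.55; 0.393 and 0.191 without the same libraries). Slfn1, a Schlafen gene linked to T cell quiescence, was at 30.1, 29.6, 136 and 58.1 CPM (log2 1.74; 0.492 and 0.46). Of the alternatives, Bst2 held its call in 12 of 18, Slfn1 in 8 of 18, Eif2ak2 in 8 of 17 and Oas1a in 7 of 17, and DESeq2 did not call Eif2ak2, Oas1a or Slfn1 (adjusted p = 0.24, 0.414 and 0.1). In all 4 genes LNP-Sirpa 1 lay furthest from the controls and LNP-Sirpa 2 between. Isg15, a ubiquitin-like modifier, did not pass (log2 1.44 ± 0.50, edgeR adjusted p = 0.507). It was at 319 and 397 CPM in the controls and at 1395 and 509 CPM with LNP-Sirpa. Its log2 was 1.98 without LNP-Sirpa 2 and 1.57 without control 2. Rsad2, which encodes viperin, was at 21.3, 39.5, 481 and 140 CPM (edgeR adjusted p = 0.535, DESeq2 0.0341). Its log2 ranged from 1.73 to 4.10 over 18 alternatives. Irf7, the factor that amplifies interferon production, was at 30.1, 24.7, 175 and 65.8 CPM (edgeR adjusted p = 0.153, DESeq2 0.0125). Its log2 ranged from 1.30 to 2.66 over 18 alternatives. For these genes the spread between the treated libraries was wide. Members of the Oas and Slfn families share sequence, and the way shared reads were counted is not given in the sources used here.

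**Figure D5:**
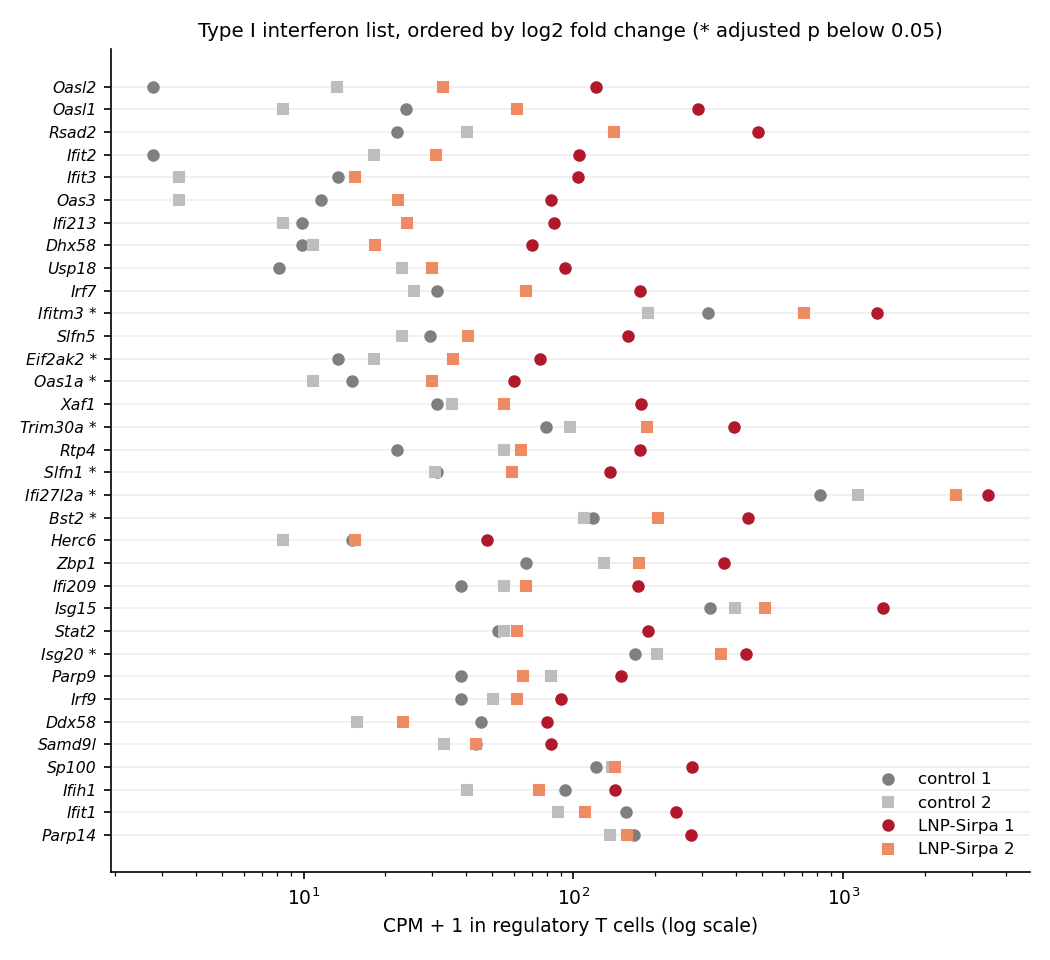
Level of the 34 tested genes of the type I interferon list in regulatory T cells (CPM + 1, log axis), 1 point per library, ordered by log2 difference; an asterisk marks an edgeR adjusted p below 0.05. LNP-Sirpa 1 is the highest library for all 34 genes, and LNP-Sirpa 2 lies above both controls for 29.

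The list was also summed in each cell set. Its level in regulatory T cells was 2947, 3256, 12138 and 6310 CPM, and both treated libraries were above both controls. In Foxp3-negative CD4 T cells it was 2412, 2992, 10949 and 4923 CPM, in CD8 T cells 1524, 1297, 8167 and 3650 CPM, and in macrophage-like barcodes 2563, 2255, 12143 and 5575 CPM. Both treated libraries exceeded both controls in these sets too. NK-like barcodes (no CD3 UMI, at least 2 UMIs of Ncr1 and Klrb1c) were at 1596, 1228, 4571 and 1226 CPM, with LNP-Sirpa 2 (41 barcodes) below both controls. The controls of regulatory T cells thus stood above those of CD8 T cells. After thinning, a single regulatory T cell held a median of 5 UMIs of the list in control 1 (quartiles 3 and 9), 4 in control 2 (3 and 8), 23 in LNP-Sirpa 1 (16 and 30) and 11 in LNP-Sirpa 2 (7 and 17). The lower quartile of LNP-Sirpa 1 thus lay above the upper quartile of either control, while cells of LNP-Sirpa 2 overlapped those of the controls. Cells without any UMI of the list were 2.35% in each control and at most 0.513% with LNP-Sirpa.

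Surface proteins of the Ly6 and Ifitm families, many of them interferon-inducible, included 4 that rose of 8 tested (median log2 1.37), where 1.26% of all genes rose. A gene such as Ly6i could enter the test through the LNP-Sirpa libraries alone, so these counts describe the list and do not support it. Ly6a, which encodes Sca-1, an antigen of activated lymphocytes, was at 997 and 1189 CPM in controls and at 2516 and 2105 CPM with LNP-Sirpa (log2 1.11 ± 0.23, edgeR adjusted p = 0.0114). The treated libraries were close together. Without control 1 the log2 was 1.04 with an adjusted p of 0.109, and in cells with a Cd4 UMI alone 0.98 with 0.192. Ifitm3, a membrane protein that blocks viral fusion, was at 315, 187, 1333 and 710 CPM, below the macrophage-like mean of 1445 CPM, and its adjusted p was 0.223 after subtraction, 0.641 with at least 2 Foxp3 UMIs and 0.543 with the phagocyte limit at 30. Its relative Ifitm1 was at 39.0, 71.5, 197 and 127 CPM (log2 1.63 ± 0.31, adjusted p = 0.00798; without control 1, 1.26 and 0.105; at least 2 Foxp3 UMIs, 1.98 and 0.777). Ly6i had 1 and 0 UMIs in the controls and 77.4 and 64.9 CPM with LNP-Sirpa. Members of both families are near-identical in parts, so UMIs may have been assigned between them.

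Interferon gamma and antigen presentation genes showed fewer calls. With a median of 0.54, 1 of 24 tested genes of the gamma list rose and 0 fell, beside 1.26% and 0.0893% of all genes. It was Gbp4, a guanylate-binding GTPase of cell-autonomous defence, at 46.1, 46.9, 136 and 97.8 CPM (log2 1.36 ± 0.29, edgeR adjusted p = 0.0143; without control 1 1.40 and 0.075, without LNP-Sirpa 1 1.13 and 0.101; held in 11 of 18 alternatives, not with DESeq2 at 0.118). None of 19 genes of MHC class I and the immunoproteasome passed (edgeR; 1 at an unadjusted p below 0.05; 0 by DESeq2), with a median of 0.30. B2m, the invariant chain of MHC class I, was at 2876, 2943, 3371 and 3410 CPM, and H2-K1, a class I heavy chain, at 2035, 2719, 2864 and 2853 CPM. Those groups did not overlap, and the same held upward for 10 of the 19 genes and for 10 of 24 on the gamma list. Over all genes it held upward for 17.8%. Downward it held for 1 gene of each list and for 20% of all genes. Counts of this kind describe the lists and were not tested.

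Genes outside the interferon lists were among the other rises. Crlf2, the receptor chain for thymic stromal lymphopoietin (TSLP), was at 37.2 and 37.0 CPM in controls and at 133 and 89.1 CPM with LNP-Sirpa (log2 1.62 ± 0.31, edgeR adjusted p = 0.00667). Its adjusted p was 0.138 in Cd4-positive cells alone. UMIs of it were in 18.9%, 14.7%, 47.3% and 30.2% of cells. Inhba, which encodes the activin A subunit, was at 31.9, 51.8, 124 and 172 CPM (log2 1.88 ± 0.31, adjusted p = 0.00145). The call was lost under 2 stricter definitions of a regulatory T cell, at least 2 Foxp3 UMIs (adjusted p = 0.615) and Cd4-positive cells alone (0.363). Its UMIs came from 2, 3, 49 and 33 cells, with 57.8% and 55.6% of the treated libraries' UMIs in 5 cells each. Upp1, uridine phosphorylase of nucleoside salvage, was at 33.7, 7.40, 133 and 103 CPM (log2 2.43 ± 0.42, adjusted p = 0.0103), and its adjusted p was 0.118 after subtraction, 0.12 with at least 2 Foxp3 UMIs and 0.286 in Cd4-positive cells. Ier2, an immediate early gene, was at 99.2, 155, 306 and 246 CPM (log2 1.17 ± 0.26, edgeR adjusted p = 0.0186). Without control 1 the log2 was 0.91, and without LNP-Sirpa 1 it was 1.04. Ier2 was the only call among 19 tested antigen receptor response genes, where 1.26% of all genes rose. It was also the only call among 17 tested heat shock and dissociation genes. Slfn8, Abtb2 and Nol7 also passed, with log2 differences of 1.71, 1.51 and 1.36, and each lost its call without control 1 (adjusted p = 0.252, 0.219 and 0.127); Slfn8 also without LNP-Sirpa 1 (0.235). Slfn8 and Abtb2 held their calls in 11 of 18 alternatives, as did Ier2, which moved to 0.60 (adjusted p = 0.349) with cycling cells kept and to 0.69 (0.563) without the phagocyte limit; Nol7 held it in 14.

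Some of the rises were in genes known from myeloid cells; they are given as examples, with no count or test of a myeloid list. S100a8 and S100a9, the calprotectin subunits of neutrophils and monocytes, had the largest fold changes with UMIs in both controls, and averaged 132 and 139 CPM here against 128 and 123 CPM in macrophage-like barcodes. S100a9 was at 7.08, 2.47, 341 and 204 CPM (log2 5.73 ± 0.45, edgeR adjusted p = 9.77e-08). The call was lost with the phagocyte limit at 30 (adjusted p = 0.0979), without that limit (3.40 and 0.363) and with equal cell numbers (0.0971). S100a8 was at 10.6, 2.47, 366 and 151 CPM (log2 5.18 ± 0.72, adjusted p = 0.0348; without control 1 6.73 and 0.329, after subtraction 0.0602, without the phagocyte limit 3.40 and 0.101). They sat in few cells: 5 cells held 81.4% and 83.3% of the S100a8 UMIs of LNP-Sirpa 1 and 2, and 81.7% and 95.3% of those of S100a9. The 6 neutrophil markers summed to 35.4, 19.7, 764 and 388 CPM, with Cxcr2 and Retnlg at 0 in both controls, and in macrophage-like barcodes to 61.7, 65.6, 798 and 203 CPM. Their part in the result was not tested. Fcgr1, an Fc receptor of macrophages, was at 24.8, 22.2, 191 and 104 CPM against a macrophage-like mean of 327 CPM. Cfb, complement factor B, was at 5.31, 4.93, 104 and 59.0 CPM against 153 CPM, and Nos2, inducible nitric oxide synthase, had 3 and 0 UMIs in controls and 90.4 and 69.7 CPM with LNP-Sirpa. The chemokine Ccl7 was at 264, 212, 522 and 475 CPM, below 1729 CPM in macrophage-like barcodes, and lost its call without control 2 (adjusted p = 0.112) and in 5 other alternatives. Without the phagocyte limit its log2 was 0.37 (0.56), and Cfb and Fcgr1 lost their calls there as well (0.719 and 0.243). These examples were chosen after their values were seen.

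Marker genes of other cell types in the summed regulatory T cells were compared by group. All 10 macrophage markers were detected in every library, and they summed to 4354, 4337, 4438 and 3834 CPM, with overlapping groups. They include C1qa, C1qb, C1qc, Apoe and Lyz2, which the membership rule limits in every cell. The sum is therefore partly fixed by the choice of cells and does not measure whether macrophage RNA differed between groups. The 6 monocyte markers summed to 586, 414, 1002 and 819 CPM, higher in both treated libraries. They are not particular to monocytes here. CD8 T cells stood at 1315, 550, 1696 and 2046 CPM and macrophage-like barcodes at 907, 667, 920 and 576 CPM. Ly6c2, which is among the 6 and also on the Ly6 list, was at 28.3, 2.47, 253 and 136 CPM in regulatory T cells. Mast cell and basophil markers stood apart in LNP-Sirpa 1, at 241 CPM against 28.3, 27.1 and 3.87 CPM elsewhere. Most of that came from few cells, since 1 cell held 126 of the 207 Cpa3 UMIs there. Fibroblast markers were at 232, 197, 419 and 13.6 CPM and natural killer cell markers at 110, 178, 234 and 20.3 CPM. B cell markers summed to at most 51.8 CPM in any library. The 6 markers of type 2 innate lymphoid cells summed to 287, 138, 134 and 166 CPM; Il1rl1 and Gata3 were detected in every library, Hs3st1 only in LNP-Sirpa 1 and Il17rb only in LNP-Sirpa 2, while the cytokines Il5 and Il13 were at 0 in all. Haemoglobin genes were at 0 in all but LNP-Sirpa 1. What each of these contributes to the gene calls was not tested, beyond the subtraction of the macrophage-like profile.

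Falls were few. Nrn1, which encodes neuritin, a protein linked to T cell tolerance, was at 42.5 and 37.0 CPM in the controls and at 6.99 and 7.74 CPM with LNP-Sirpa (log2 -2.42 ± 0.45, edgeR adjusted p = 0.00538; without control 1, -2.25 and 0.0908; Cd4-positive cells, -2.19 and 0.252). UMIs of it were in 15.6%, 12.6%, 3.29% and 3.11% of cells. Tff1, a trefoil peptide gene, was at 63.8, 29.6, 11.0 and 5.81 CPM (log2 -2.40 ± 0.46, adjusted p = 0.00761; without control 1, -1.66 and 0.406). Both genes averaged under 1 CPM in macrophage-like barcodes. Cirbp, a cold-inducible RNA-binding protein gene, was at 140, 222, 62.4 and 78.4 CPM (log2 -1.32 ± 0.27, adjusted p = 0.0113; without control 2, -1.0 and 0.0918; without LNP-Sirpa 1, -1.12 and 0.079). Gclc, a subunit of the enzyme that starts glutathione synthesis, was at 56.7, 91.3, 24.0 and 23.2 CPM (log2 -1.59 ± 0.34, adjusted p = 0.0141), but 25 of its 37 UMIs in control 2 came from 1 cell, and without control 2 the log2 was -1.26 with an adjusted p of 0.0714. With the phagocyte limit at 30 it was -0.25 (0.979), and DESeq2 did not call it (0.11). The other genes that fell were Mef2c, Selenop and Igkc, of which Mef2c and Selenop were higher in macrophage-like barcodes than in regulatory T cells; Mef2c lost its call without control 1 (0.0634), Selenop without control 2 (0.132) or LNP-Sirpa 2 (0.131). After subtraction of the macrophage-like profile Selenop was at -0.82 (0.537), and DESeq2 called neither Selenop (0.256) nor Mef2c (0.15). Nrn1, Tff1 and these 3 fall outside the naming rule and were chosen after their values were seen.

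No gene of the regulatory identity list was called. Over all genes 1.35% were called in either direction, so no call among 16 genes is close to that share. Of 16 tested identity genes outside the rule none passed (edgeR; 0 at an unadjusted p below 0.05; 0 by DESeq2), with a median of 0.04, although 1 passed without LNP-Sirpa 1. Il2ra differed by 0.09 ± 0.24, Tnfrsf4 by -0.01 ± 0.24, Ctla4 by -0.28 ± 0.25 and Ikzf2 by -0.31 ± 0.24 on the log2 scale, all with overlapping groups. In thinned cells, however, the share with an Ikzf2 UMI was 87.6% ± 0.832 in controls and 79.5% ± 2.14 with LNP-Sirpa (SD, n = 2 each; exact permutation p = 0.333), without overlap. Log2 differences of the sizes above are under what the test can call: on simulated data it recovered 17% of genes changed by log2 1 and 90.3% of those changed by log2 2. Thinned single cells held a median of 16, 18, 15 and 19 UMIs of the identity list, against 4, 9, 6 and 7 in Foxp3-negative CD4 T cells.

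Effector, suppressive, homing and metabolic lists gave no call either. In all, 17 of the 22 lists, with 240 genes tested, held no gene past the threshold with edgeR or DESeq2. Over all genes edgeR called 1.35%. The 17 lists were grouped by having no call, so that count is no result about them. Of these 240 genes 23 were higher and 10 lower at an unadjusted edgeR p below 0.05. The share of all genes at that unadjusted p is not given here, so these counts describe the lists alone. The 26 effector and tumour regulatory T cell genes had a median of -0.03, the 17 suppressive molecules 0.45, the 14 checkpoint receptors and Tox -0.30, the 21 chemokine receptors and homing genes -0.02 and the 26 glycolysis and hypoxia genes -0.07. Il10 was at 312, 257, 306 and 506 CPM (log2 0.54 ± 0.27, adjusted p = 0.599) with overlapping groups. Areg, the tissue-repair growth factor amphiregulin, ranged from 79.7 CPM in control 1 to 355 CPM in LNP-Sirpa 1 (1.11 ± 0.58, adjusted p = 0.724). Its log2 ranged from 0.34 to 1.64 over 18 alternatives. Ccr4, a skin and tumour homing receptor, was at 37.2, 27.1, 14.5 and 7.74 CPM (-1.45 ± 0.45, adjusted p = 0.157). Tox, a factor of chronically stimulated T cells, was at 310, 318, 240 and 189 CPM (-0.52 ± 0.23, adjusted p = 0.517). In Ccr4 and Tox both treated libraries lay below both controls, which 20% of all genes also showed.

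The receptor that the treatment is directed at and its ligand were measured in the same cells. Sirpa, the target, was at 135, 131, 183 and 120 CPM, with overlapping groups (log2 0.22 ± 0.26, edgeR adjusted p = 0.914), below the 476 CPM of macrophage-like barcodes. Degradation acts on the protein, so the RNA level is no check of it. Cd47, the ligand that protects cells from engulfment, was at 218, 281, 461 and 338 CPM. Both treated libraries lay above both controls, and the difference did not pass (log2 0.72 ± 0.24, adjusted p = 0.225).

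Whether the treatment difference was particular to regulatory T cells was tested as an interaction of cell set and treatment, with the library as a block. Against CD8 T cells 17 of 10242 genes passed (0.166%), 10 with a larger and 7 with a smaller difference in regulatory T cells. Gzmb was at 312, 432, 514 and 649 CPM in regulatory T cells and at 232, 243, 890 and 1207 CPM in CD8 T cells. It rose in CD8 T cells (log2 2.17), and the difference of the differences was -1.46 ± 0.23 (edgeR adjusted p = 0.00166), past the threshold in all 9 alternatives. Ass1, argininosuccinate synthase, was at 191, 205, 157 and 192 CPM in regulatory T cells and at 33.2, 17.7, 56.3 and 63.6 CPM in CD8 T cells (-1.59 ± 0.31, adjusted p = 0.0195; without control 2, -1.0 and 0.44; phagocyte limit at 30, -0.56 and 0.998; thinned, -0.98 and 0.988; subtracted 0.267). Itgb7, an integrin chain of gut homing, was at 360, 294, 312 and 347 CPM against 51.8, 27.9, 80.6 and 106 CPM (-1.29 ± 0.27, adjusted p = 0.0349; without control 2 0.317, without LNP-Sirpa 2 0.366, subtracted 0.248, thinned 0.977). For Gzmb, Ass1 and Itgb7, the regulatory T cell groups overlapped or differed less than those of CD8 T cells. Upp1 went the other way, with 93.3, 30.2, 89.4 and 87.8 CPM in CD8 T cells and a difference of 2.02 ± 0.38 (adjusted p = 0.0122; without control 1, 2.51 and 0.23; subtracted 0.0923). Isg15 also passed, at -1.20 ± 0.24 (adjusted p = 0.0236), with CD8 T cells at 124, 96.7, 953 and 366 CPM; without control 2 the adjusted p was 0.171, without LNP-Sirpa 2 0.205 and after subtraction 0.201. It was chosen after its values were seen.

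Against Foxp3-negative CD4 T cells 11 of 8108 genes passed (0.136%), 5 larger and 6 smaller in regulatory T cells. That set held 20, 40, 196 and 141 cells, so its controls are thin. Bach2, a repressor that keeps T cells from terminal differentiation, was at 40.7, 44.4, 76.4 and 57.1 CPM in regulatory T cells and at 322, 218, 115 and 81.9 CPM in the Foxp3-negative cells. The directions were opposite, and the difference was 2.20 ± 0.35 (edgeR adjusted p = 0.0112; without LNP-Sirpa 1, 2.20 and 0.052; phagocyte limit at 30 0.566; subtracted 0.0806). Serpinb6b, a protease inhibitor gene, was at 46.1, 49.3, 76.4 and 46.5 CPM against 346, 250, 93.4 and 103 CPM (2.11 ± 0.38, adjusted p = 0.0193; without LNP-Sirpa 1, 1.55 and 0.74; thinned 0.98 and 0.99; subtracted 0.152). Gzma, a granule protease, was smaller by -4.93 ± 0.56 (adjusted p = 8.19e-05). Its regulatory T cell values of 31.9, 109, 154 and 11.6 CPM and its Foxp3-negative values of 0, 21.8, 811 and 42.3 CPM varied more between libraries than between groups. Of the genes called in regulatory T cells 105 were in this test and 1 passed it; against CD8 T cells 106 were and 3 passed. On simulated data the interaction recovered 47% of genes differing by log2 2 against Foxp3-negative CD4 T cells and 63.6% against CD8 T cells, so smaller differences between cell sets would mostly be missed. Against Foxp3-negative CD4 T cells it called 10 unchanged genes, beside 10 genes changed by log2 1 and 47 by log2 2. Against CD8 T cells it called 6 unchanged genes, beside 13 and 63.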

How the data were processed

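Droplet single-cell libraries (DNBelab C Series, DNBSEQ-T7) were aligned with STAR 2.5.1b to GRCm39, per the submitters' processing notes. PISA 1.0 wrote the deposited matrices, per the file headers, and their values are whole UMI counts with no normalization. Every barcode held at least 1000 UMIs; neither the rule for calling cells nor the annotation is stated in the sources used here. The 4 oligo libraries were not analysed here. The members and lists were chosen with earlier results of these data known.

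Counts of all members were summed per library and compared by the quasi-likelihood F test of edgeR 4.0.16 (R 4.3.3), with TMM factors, the filterByExpr filter, robust fitting and a Benjamini-Hochberg threshold of 0.05. The interaction fits used the sums of 2 cell sets with the library as a block. A fit without 1 library leaves 1 library in that group. Its p-value then reflects the spread within the other group alone, and shows only where calls depend on 1 library. CPM are counts scaled to a set's total UMIs. No doublet caller was applied in the reported values; an alternative left out the 5% of barcodes with the highest Scrublet scores (scanpy 1.11.5), which held 2, 0, 15 and 9 members. Shares were also read after thinning to 2000 UMIs. Other work used Python 3.11.15, numpy 2.4.6, pandas 2.3.3 and scipy 1.17.1.

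Named genes were the markers, Sirpa and Cd47; the 12 largest rises and falls past the threshold with at least 50 CPM and at least the macrophage-like level; up to 4 called members per list, or its 2 with the highest level where fewer than 2 passed; and the 5 smallest p of each interaction test at that level. Predicted, ribosomal and mitochondrial genes, receptor segments and the genes of the membership rule were not named. Some genes that the rule chose are not printed. On data simulated from these sums, edgeR recovered 17% of genes changed by log2 1 and 90.3% of those changed by log2 2. These were 16 and 84 genes, and 13 unchanged genes were called beside them, among 7513 genes. Tests used all genes with enough UMIs, and the precision is limited by 90 and 95 control cells.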

Additional observations from a re-analysis of the deposited data

Results flagged for a closer look

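In 12 cases the treatment difference in regulatory T cells departed from that in another T cell set by edgeR's interaction test. Against CD8 T cells these were Gzmb (-1.46), Ass1 (-1.59), Itgb7 (-1.29), Igfbp6 (-2.96), Upp1 (2.02), Cma1 (5.23) and Cpa3 (4.98), all as log2 differences of differences. Igfbp6, a binding protein of insulin-like growth factors, was at 67.3, 76.5, 40.9 and 7.74 CPM in regulatory T cells (control 1, control 2, LNP-Sirpa 1, LNP-Sirpa 2) and at 2.07, 5.76, 16.9 and 8.84 CPM in CD8 T cells; its adjusted p was 0.251 without control 1 and 0.148 without control 2. Cma1 and Cpa3 are mast cell proteases. Cma1 was at 10.6, 2.47, 218 and 2.90 CPM in regulatory T cells and at 299, 7.98, 140 and 1.97 CPM in CD8 T cells, and 239 of its 437 UMIs in the regulatory T cells of LNP-Sirpa 1 came from 1 cell. Without control 1 the adjusted p was 0.83 for Cma1 and 0.79 for Cpa3.

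Against Foxp3-negative CD4 T cells the differences were Bach2 (2.20), Serpinb6b (2.11), Gzma (-4.93), Igfbp6 (-4.31) and H2bc4 (-1.65). H2bc4, a histone H2B gene with near-identical copies, was at 299, 286, 123 and 222 CPM in regulatory T cells and at 79.0, 81.6, 115 and 195 CPM in the Foxp3-negative cells, and lost its call without either LNP-Sirpa library (adjusted p = 0.35 and 0.25). Igfbp6 lost it without LNP-Sirpa 1 (0.17). The Foxp3-negative set held 20 and 40 control cells.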

How the results depend on the processing

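Among the genes followed through the alternatives, no difference past its threshold changed direction. These were the named genes and others given with their alternatives, not all 106 calls. Differences that did not pass could cross 0: Sirpa ranged from -0.35 to 0.64, Il2ra from -0.12 to 0.34 and Tnfrsf4 from -0.38 to 0.30 on the log2 scale, and Gzma within regulatory T cells was called at -2.44 without LNP-Sirpa 1 and at 1.42 without control 2. Of the counts of genes higher and lower in regulatory T cells (99 and 7), DESeq2 1.42.0 gave 58 and 3, no filter on low counts 223 and 25, Cd4-positive cells alone 39 and 4, no limit on phagocyte genes 47 and 11, and the same number of cells per library 13 and 2. Higher genes alone moved to 51 with at least 2 Foxp3 UMIs, 37 with the phagocyte limit at 30, 58 with cycling cells kept and 55 after thinning; lower genes moved to 12 without the highest Scrublet scores. DESeq2 size factors, a stricter cell filter and subtraction of the macrophage-like profile stayed within 1.5 times. Leaving out 1 library gave 57 to 246 higher and 9 to 47 lower. Of the 106 calls, DESeq2 shared 46 and 2, and the equal numbers 12 and 1. The replicate block gave 197 higher and 36 lower, among them all 99 and 7. The labels do not say whether libraries with the same replicate number were handled together. The correlation of deviations was -0.00414 for control 1 with LNP-Sirpa 1 over 2000 genes. With 2 libraries per group it only compares the difference within 1 group with that within the other, so it cannot decide this. Of 11 differences from Foxp3-negative CD4 T cells, no filter gave 41, the stricter phagocyte limit 3, subtraction 3 and leaving out 1 library 11 to 110. Of 17 from CD8 T cells, the same settings gave 40, 34, 7 and 15 to 59, and thinning 6. The treated minus control share of barcodes (1.83 points) was 1.14 with at least 2 Foxp3 UMIs, 1.30 with the stricter phagocyte limit, 0.819 in Cd4-positive cells, 2.30 without that limit and 1.46 to 2.19 without 1 library. The share of CD4 T cells (-18.7 points) was -6.84 without the limit, -10.6 after thinning and -25.5 to -12.0 without 1 library. The cause of these shifts was not tested, other than that alternatives with fewer cells hold fewer UMIs. The phagocyte limit's removal and the equal cell numbers were chosen after seeing the data.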
